A study of Mus musculus with 14 samples.

Results

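The replication-dependent histone genes were followed through 10 lists of called regions from chromatin immunoprecipitation and sequencing (ChIP-seq). Members are the protein-coding genes of GENCODE M21 (mm10) whose symbols begin with Hist1h, Hist2h, Hist3h or Hist4h, a rule that uses no measured value. This gave 67 of 21938 protein-coding genes on chromosomes 1 to 19, X and Y, namely 6 genes of the linker histone H1, 18 of H2A, 18 of H2B, 12 of H3 and 13 of H4. Of these, 54 lie on chromosome 13, 10 on chromosome 3, 2 on chromosome 11 and 1 on chromosome 6.

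All libraries came from 81K1 cells, 1 clone (K1) of the mouse embryonic stem cell line OG2 that carries a doxycycline-inducible shRNA against Smarcb1 at the Rosa26 locus. Control cells received no doxycycline, and Smarcb1 kd cells were kept in 1 µg/ml doxycycline for 72 h. The antibodies were directed against Smarca4 (the ATPase of the esBAF remodelling complex, of which Smarcb1 is a core subunit), Ezh2 (the methyltransferase of the Polycomb complex PRC2), its product H3K27me3, and the marks of active promoters H3K27ac and H3K4me3. There was 1 library per antibody and condition, so a difference between conditions has no replicate check and no p-value is given. Smarca4 and H3K27me3 were processed at Active Motif and the other antibodies in the authors' laboratory, so antibodies of these groups cannot be told apart from the laboratories. The deposited lists give regions and not reads. The paper states an approximate number of sequenced reads for the Ezh2, H3K27ac and H3K4me3 samples and none for Smarca4 and H3K27me3. How many aligned reads stand behind each list is unknown.

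Replication-dependent histone genes supply the core and linker histones that are wrapped into new chromatin during S phase. They have no introns, sit in tight clusters with many nearly identical copies, and their mRNAs end in a stem-loop instead of a poly(A) tail. H2A and H2B genes often stand head to head and share the DNA between their starts. A few members, such as Hist1h2ba, Hist1h2aa and Hist1h1t, are known as genes of male germ cells.

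Many of these genes are near copies of one another. The 13 H4 genes encoded 1 protein, the 12 H3 genes 3, the 18 H2A genes 9, the 18 H2B genes 12 and the 6 H1 genes 6 different proteins, as translated from the longest open reading frame of their transcripts. These frames were 136 to 181 amino acids long in H3 genes and 126 to 138 in H2B genes. Forms of unlike length count here as different proteins. The 75 bases printed below stand on chr13:21810641-21810715 (mm10, plus strand) inside Hist1h2ao, at the centre of the strongest Smarca4 peak in which no 75-base word was unique. They were found 12 times in the genome without a mismatch, 11 of them inside H2A genes of chromosome 13.

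Hist1h2ao: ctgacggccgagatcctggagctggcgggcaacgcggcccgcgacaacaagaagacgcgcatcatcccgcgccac

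The stem-loop at the gene end was found by its pattern in 65 of the 67 genes (97.0%), against 1.32% of all protein-coding genes. It was searched from the gene start to 100 bases after the gene end, and Hist1h2an and Hist2h2be held no match in that stretch. Its 16 bases are shown for the 3 commonest forms, with the loop of 4 bases in the middle.

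41 genes: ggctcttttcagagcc

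9 genes: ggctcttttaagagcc

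8 genes: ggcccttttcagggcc

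The first form was found in 5 H1, 15 H2A, 13 H2B and 8 H3 genes and in no H4 gene. The third was found in 8 of the 13 H4 genes and in no other class. The other 5 H4 genes held 3 rarer forms that no gene of another class shared.

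Promoters of the classes also differed in their short motifs, searched on both strands from 250 bases before to 50 bases after the start. The octamer ATTTGCAT, the site of Oct factors in H2B promoters, stood in 7 H2A and 8 H2B genes and in no gene of the other classes, or 22.4% of the 67 genes against 1.57% of all protein-coding genes. Among them are both partners of head-to-head pairs such as Hist1h2ae with Hist1h2bg, Hist1h2ah with Hist1h2bk and Hist1h2ac with Hist1h2bc. In such a pair 1 octamer between the starts can count for both genes. CCAAT stood in 83.6% of the histone genes against 39.0% of all, including all 36 H2A and H2B genes but 4 of 13 H4 genes. TATAAA was held by 55.2% against 12.6%. AAACACA, known from H1 promoters, was held by 4 of 6 H1 genes and by 13.4% of all histone genes against 6.40% of all protein-coding genes. Neighbouring matches can share letters only at their ends, and a match is a string of letters and not a measured site.

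The promoters that the results below turn on are printed with these motifs in capitals. The first is the stretch between the starts of the head-to-head pair Hist1h2ae and Hist1h2bg (chr13:23571221-23571395, mm10, plus strand), which was free of Smarca4 peaks in both conditions. Both genes held a peak in both conditions, in Hist1h2ae at chr13:23570714-23570993 in control and chr13:23570737-23571051 in kd, and in Hist1h2bg at chr13:23571505-23571787 and chr13:23571552-23571817. Of the 75-base words in these peaks, 0% were unique in the genome in both control peaks. In kd the share was 19.9% in the Hist1h2ae peak and 13.5% in the Hist1h2bg peak. Whether the reads of these peaks came from this pair or from other copies was not tested. The other promoters are printed as the 250 bases before the RefSeq start (GRCm38.p6). Hist1h1c lay in the widest H3K27ac island at histone genes in control (chr13:23738557-23738806, plus strand). Hist1h2aa is a germ cell gene (chr13:23934187-23934436, plus strand), and Hist3h2a lay under H3K27me3 (chr11:58954435-58954684, plus strand). Hist1h4c (chr13:23698459-23698708, minus strand) and Hist1h4d (chr13:23581318-23581567, plus strand) had no Smarca4 peak.

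Hist1h2ae to Hist1h2bg: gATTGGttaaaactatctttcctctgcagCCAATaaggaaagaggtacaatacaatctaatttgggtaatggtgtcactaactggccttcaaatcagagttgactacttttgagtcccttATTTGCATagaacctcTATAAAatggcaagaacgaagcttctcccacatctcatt

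Hist1h1c: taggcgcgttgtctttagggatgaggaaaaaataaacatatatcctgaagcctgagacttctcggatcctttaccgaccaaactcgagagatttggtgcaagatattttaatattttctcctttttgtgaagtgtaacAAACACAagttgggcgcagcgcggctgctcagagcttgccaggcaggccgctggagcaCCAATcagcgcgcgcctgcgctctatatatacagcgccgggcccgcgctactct

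Hist1h2aa: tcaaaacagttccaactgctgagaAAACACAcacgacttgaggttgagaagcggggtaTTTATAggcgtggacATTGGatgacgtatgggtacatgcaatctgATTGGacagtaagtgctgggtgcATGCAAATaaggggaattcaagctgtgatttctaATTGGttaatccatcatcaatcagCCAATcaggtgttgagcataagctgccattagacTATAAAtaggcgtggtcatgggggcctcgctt

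Hist3h2a: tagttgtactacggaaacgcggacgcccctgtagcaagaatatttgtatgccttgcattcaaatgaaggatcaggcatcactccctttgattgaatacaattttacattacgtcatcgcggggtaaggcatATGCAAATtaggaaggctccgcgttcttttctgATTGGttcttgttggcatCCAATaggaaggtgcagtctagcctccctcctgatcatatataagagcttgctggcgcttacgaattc

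Hist1h4c: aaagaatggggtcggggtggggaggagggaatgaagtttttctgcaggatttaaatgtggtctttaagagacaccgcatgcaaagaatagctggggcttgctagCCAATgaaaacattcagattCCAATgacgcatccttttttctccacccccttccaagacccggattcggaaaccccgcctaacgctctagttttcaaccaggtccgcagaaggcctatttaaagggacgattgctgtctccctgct

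Hist1h4d: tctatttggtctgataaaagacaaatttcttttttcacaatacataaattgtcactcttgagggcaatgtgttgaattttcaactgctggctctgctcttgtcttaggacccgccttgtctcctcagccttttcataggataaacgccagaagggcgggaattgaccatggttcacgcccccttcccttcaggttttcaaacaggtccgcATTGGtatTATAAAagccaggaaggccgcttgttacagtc

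Octamers on the reverse strand appear in these lines as ATGCAAAT, CCAAT as ATTGG and TATAAA as TTTATA. Hist1h2aa, which carried no active mark in either condition, held an octamer, 4 CCAAT, 2 TATAAA and an AAACACA match. The shares above were counted around the GENCODE start, and this AAACACA is not among them. The promoter of Hist1h1c, in the widest H3K27ac island at histone genes in control, held 1 CCAAT and 1 AAACACA. In kd the island there began after this stretch, at chr13:23739001.

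Most histone genes carried the active marks and Smarca4 at their promoters and few carried Polycomb marks. A gene was counted for a list when its transcription start site (TSS) ± 1 kb overlapped a called region by at least 1 bp. H3K4me3 was called at 65 of 67 genes in control and 64 in Smarcb1 kd, where 56.6% and 60.4% of all protein-coding genes had a region. H3K27ac was called at 58 genes in control and 62 in kd, against 16.0% and 30.9% of all protein-coding genes. Smarca4 was called at 57 genes in control and 64 in kd, against 62.5% and 63.5%.

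Polycomb was rare at these genes. H3K27me3 was called at 6 genes in control and 5 in kd, against 34.9% and 29.2% of all protein-coding genes. Ezh2 was called at none of the 67 genes in either condition, against 7.13% and 12.6%. The 95% Wilson intervals, which cover counting error over genes only, ran from 74.7% to 91.7% for Smarca4 in control, from 76.4% to 92.8% for H3K27ac in control, from 4.17% to 18.2% for H3K27me3 in control and from 0 to 5.42% for Ezh2. Genes under 1 island share it and are not independent.

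**Figure D1:**
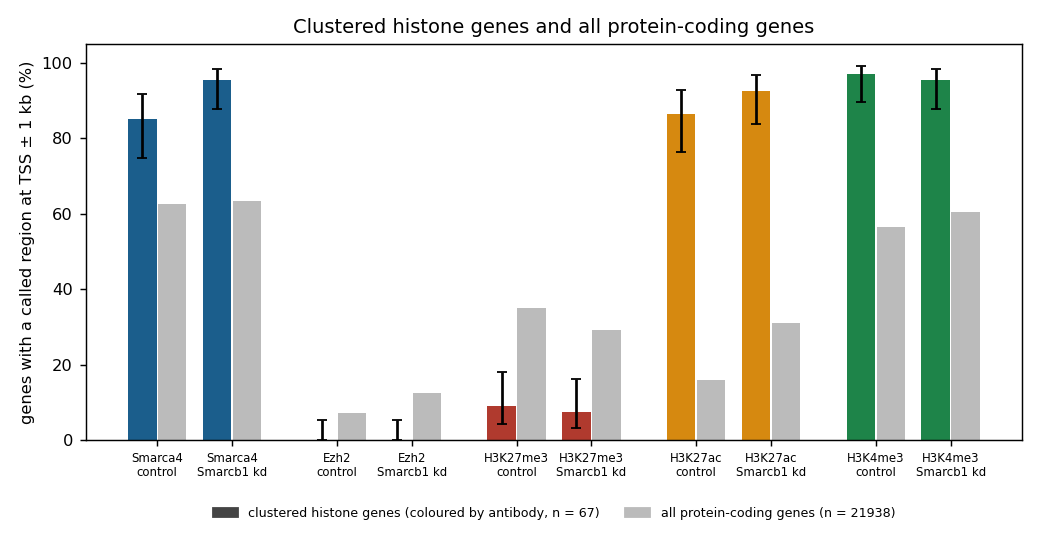
Share of genes with a called region at TSS ± 1 kb (y axis, %) for each antibody and condition, with 1 library per bar. Coloured bars are the 67 clustered histone genes with 95% Wilson intervals and grey bars all 21938 protein-coding genes. H3K27ac lies at 86.6% of histone genes in control against 16.0% of all genes, and Ezh2 at none.

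In all, 51 histone genes (76.1%) had Smarca4, H3K27ac and H3K4me3 in both conditions, a combination found at 12.7% of protein-coding genes. H3K27ac also stood out among genes with an H3K4me3 island. Of the 65 histone genes with H3K4me3 in control, 89.2% had H3K27ac in control, against 25.9% of the 12410 protein-coding genes with H3K4me3. For Smarca4 the order was the other way round in control, with 84.6% of these histone genes and 94.4% of the protein-coding genes, and close in kd, with 95.4% and 96.8%.

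**Figure D2:**
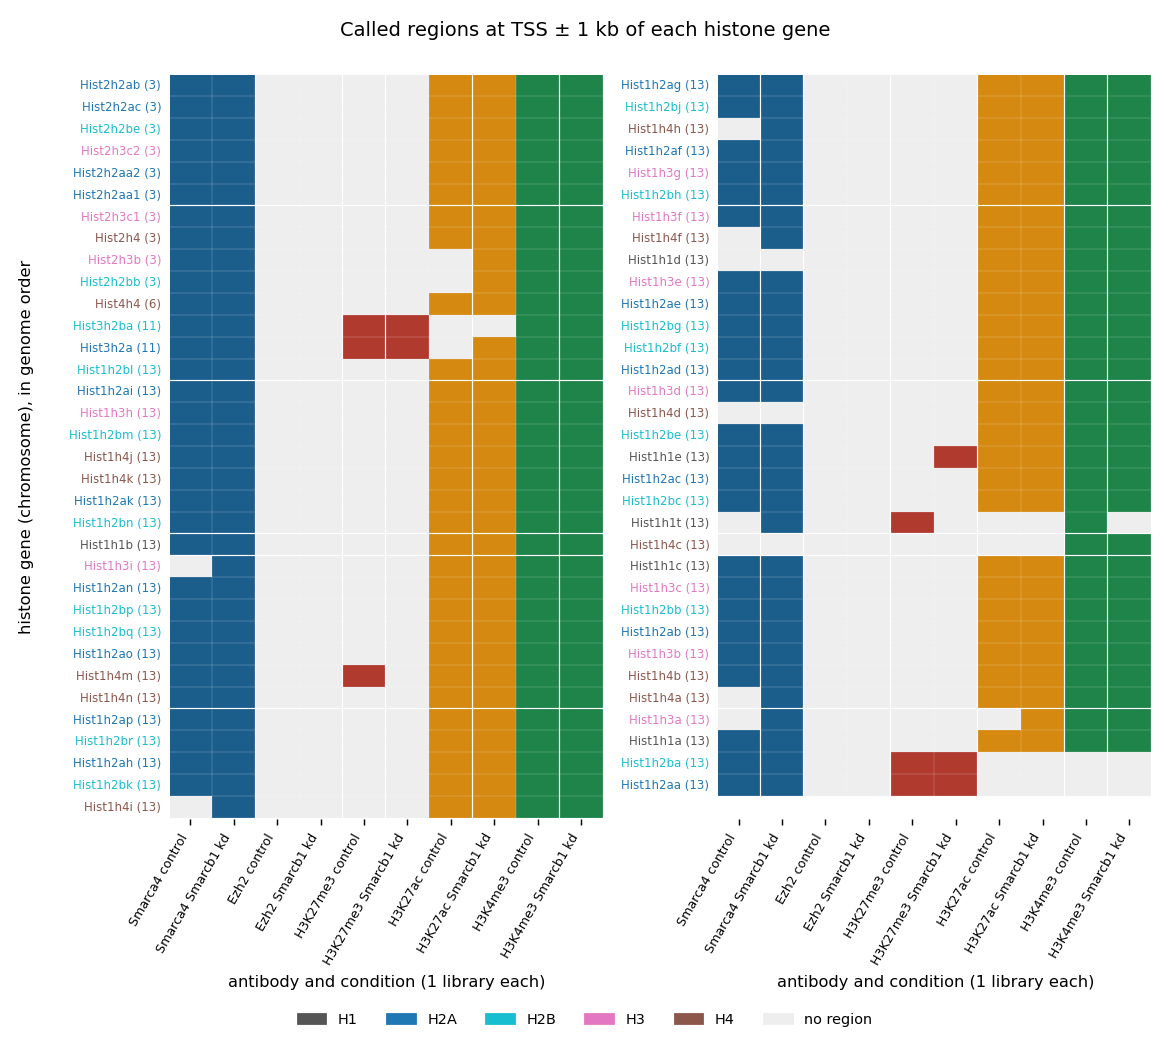
Presence (coloured, by antibody) or absence (light grey) of a called region at TSS ± 1 kb for each of the 67 histone genes (rows, ordered by chromosome and position, symbol coloured by histone class) in the 10 lists (columns, 1 library each). Ezh2 columns are empty, H3K27me3 marks 6 genes in control and 5 in kd, and the gaps in the Smarca4 columns fall on H1, H3 and H4 genes.

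Smarca4 calls differed by histone class. All 18 H2A and all 18 H2B genes had a peak in both conditions. In control, peaks were called at 4 of 6 H1, 10 of 12 H3 and 7 of 13 H4 genes, and in kd at 5, 12 and 11. All 26 genes in head-to-head pairs had a peak in both conditions, against 31 of the 41 other genes in control and 38 in kd. Of the 13 pairs, 12 joined an H2A with an H2B gene, with 176 to 660 bp (median 268) between the starts. Paired genes share peaks, so that the count over pairs rests on fewer peaks than genes. With only peaks in which at least 50% of 75-base words occur once in the genome, the order of the classes was another one. Such peaks lay in control at 4 of 6 H1, 7 of 18 H2A, 8 of 18 H2B, 2 of 12 H3 and 3 of 13 H4 genes, and in kd at 5, 6, 9, 6 and 8. They lay at 8 of the 26 paired genes and 16 of the 41 others in control, and at 10 and 24 in kd.

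The 7 genes with a Smarca4 peak in kd alone were Hist1h3i, Hist1h4i, Hist1h4h, Hist1h4f, Hist1h1t, Hist1h4a and Hist1h3a, or 4 H4, 2 H3 and 1 H1 gene. Protein-coding genes with a peak in kd alone made up 3.69%. No histone gene had a peak in control alone, against 2.69%. With only scores from 50 upwards, 14 genes had a peak in kd alone and 1 in control alone. The shares of protein-coding genes given here are those of the full lists and do not match this threshold. The best kd scores at the 7 genes, on the MACS2 scale of the file, were 284 at Hist1h3i, 171 at Hist1h4f, 94 at Hist1h4h, 84 at Hist1h4a and Hist1h3a, 76 at Hist1h4i and 57 at Hist1h1t. The scores of Hist1h4a and Hist1h3a came from the same peak.

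Hist1h1d, Hist1h4d and Hist1h4c had no Smarca4 peak in either condition. Hist1h1d and Hist1h4d, in the distal chromosome 13 cluster, had H3K27ac and H3K4me3 calls in both. No H3K4me3 island held the TSS of either gene, and the calls came from islands within 1 kb of it. Hist1h4c had H3K4me3 in both and H3K27ac in neither. The annotated TSS of Hist1h1d lies 1770 bp from its RefSeq start, while all other genes with a RefSeq entry lay at most 98 bp from theirs. Hist1h2be has 2 RefSeq starts, and the distance was taken to 1 of them. Its Smarca4 peak in kd was also counted for Hist1h1e.

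The highest Smarca4 ranks in control belonged to Hist3h2ba, whose best score of 268 lay at percentile 94.2 of the 79014 peaks in its list, and to the pair Hist1h2ah and Hist1h2bk with a score of 194 at percentile 89.3. In kd their scores were 148 and 202, at percentiles 80.7 and 87.6 of 72339 peaks. The lowest in control were Hist1h4j with a score of 25 (percentile 4.95), Hist1h1b with 38 (22.1) and the germ cell pair Hist1h2ba and Hist1h2aa with 42 (23.3). In kd the scores were 117 at Hist1h4j, 35 at Hist1h1b and 85 at the germ cell pair, at percentiles 74.7, 20.2 and 64.7. These genes were picked as the extremes of the control order, so that a move towards the middle in kd is no result about them.

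Over all histone genes the Smarca4 ranks were higher in kd. The best peak at a gene had a median percentile of 72.3 in control and 87.4 in kd, while over all protein-coding genes with a peak it was 85.5 and 83.2. Of the 57 histone genes called in both, 47 ranked higher in kd and 10 lower, with a median difference of 16.7 percentile points from control to kd. Of the 13117 protein-coding genes called in both, 47.1% ranked higher in kd, with a median difference of -0.58.

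Most Smarca4 peaks at histone genes stood after the TSS, and few covered the DNA just before it. At 250 bases downstream of the TSS, 76.1% of the histone genes were inside a peak in control and 89.6% in kd, against 50.7% and 51.8% of all protein-coding genes. At 150 bases upstream the order turned round, with 2.99% and 14.9% of histone genes against 33.2% and 35.8% of all genes. The TSS base itself was inside a peak at 9 histone genes in control and 22 in kd, against 43.7% and 46.2% of all protein-coding genes.

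**Figure D3:**
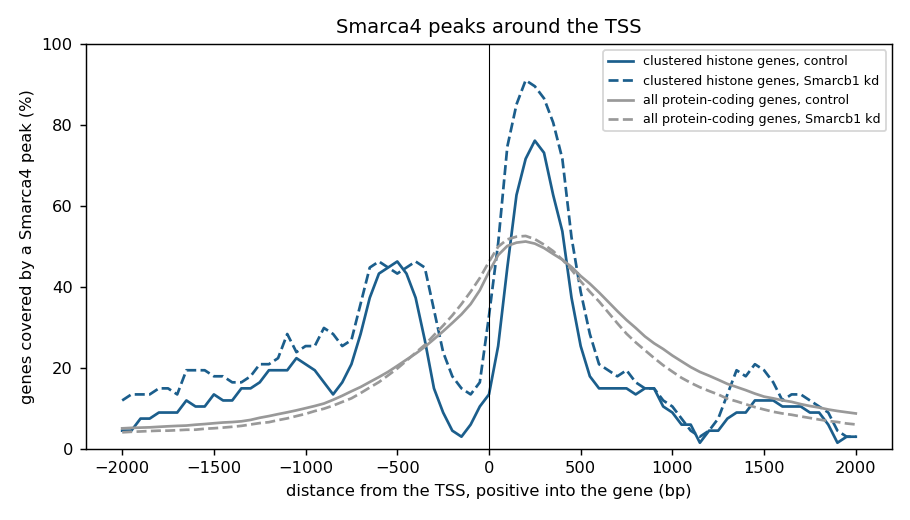
Share of genes covered by a Smarca4 peak (y axis, %) at each distance from the TSS (x axis, bp, positive into the gene) for the 67 histone genes (blue) and 21938 protein-coding genes (grey), control solid and Smarcb1 kd dashed. Histone genes show a dip just upstream of the TSS, at 2.99% in control at 150 bases upstream, between a maximum inside the gene and a lower one further upstream.

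At 500 bases upstream 46.3% of histone genes were inside a peak in control and 43.3% in kd, against 20.5% and 19.8%. In a head-to-head pair this position falls in or near the partner gene. Of the 61 distinct peaks at histone windows in control, 52 had their centre inside a histone gene, as had 61 of 73 in kd. Among peaks with under 50% unique words the shares were 94.4% and 97.5%, and among the others 72.0% and 66.7%. The median width of these peaks was 360 bp in control and 414 bp in kd.

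Much of the sequence under these peaks occurs in several places of the genome. Of the 75-base words in a histone TSS window, a median of 83.4% occurred once in the genome on either strand, with 4 windows at 0 (Hist1h2bq, Hist1h2ao, Hist1h2ap and Hist1h2br, which lie in duplicated blocks) and 10 windows under 50%. Repeated words lay mostly after the start. In the 500 bases before the TSS the median was 100% and in the 500 bases after it 53.5%. The Smarca4 peaks had a median of 32.5% unique words in control and 42.2% in kd, and 11 and 9 of them had none.

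The Smarca4 ranks differed by this property. Peaks with under 50% unique words, 36 in control and 40 in kd, had a median score of 86.5 in control and 190 in kd, at median percentiles of 65.4 and 86.5. Peaks with at least 50% unique words, 25 and 33 of them, had a median score of 94 in both conditions, at percentiles of 69.0 and 68.2. Over the 21 genes that had a peak of the second kind in both conditions, 13 ranked higher in kd and 8 lower, with a median difference of 7.96 percentile points. The highest kd score, 491, stood at Hist2h3c1, whose window had 24.3% unique words.

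The calls themselves also rested on such peaks. A peak with at least 50% unique words lay at 24 of the 67 genes in control and at 34 in kd. The other 33 called genes in control and 30 in kd had only peaks below that share. With such peaks left out, 13 genes were called in kd alone and 3 in control alone, in place of 7 and 0. By the study's methods reads were filtered to unique alignments, yet peaks without any unique 75-base word are in both lists. The part of read placement in the Smarca4 values was not tested.

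**Figure D4:**
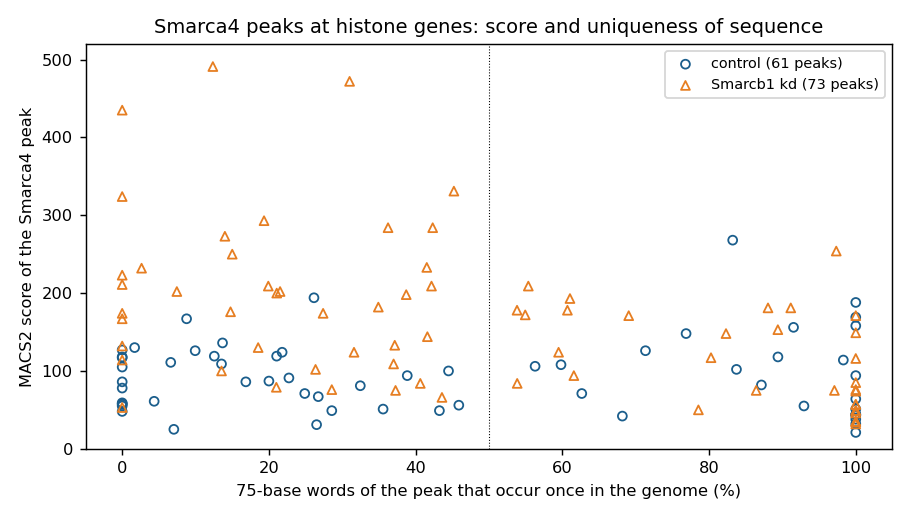
Each point is a Smarca4 peak at a histone TSS window, with the share of its 75-base words that occur once in the genome (x axis, %) and its MACS2 score (y axis, not scaled between libraries). Circles are the 61 control peaks, triangles the 73 Smarcb1 kd peaks and the dotted line marks 50%. Left of the line the kd median of 190 lies above the control median of 86.5, and right of it both are 94.

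H3K27ac stood out by its strength as well as by its presence. The median percentile of the best island at a histone gene was 75.7 of the list in control, against 37.8 over the protein-coding genes with an island, and 78.9 against 60.2 in kd. In the H3K27ac lists 79.1% of control and 74.1% of kd regions were at least 50% repeat-masked, but none of the 24 control and 30 kd islands at histone genes was.

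Of the histone genes, 4 had H3K27ac in kd alone (Hist3h2a, Hist1h3a, Hist2h3b and Hist2h2bb), where 16.8% of all protein-coding genes did. No histone gene had it in control alone, against 1.83%. Hist2h3b and Hist2h2bb were called by the same kd island, which holds the TSS of Hist2h3b and ends within 1 kb of that of Hist2h2bb. With p-values up to 1e-10 only, 16 histone genes had H3K27ac in kd alone and 3 in control alone. The 16.8% and 1.83% are shares in the full lists and do not match this threshold. The genes with H3K27ac in neither condition were Hist3h2ba, Hist1h1t, Hist1h4c, Hist1h2ba and Hist1h2aa.

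Of the 58 histone genes with H3K27ac in both conditions, 30 ranked higher in kd and 28 lower, with a median difference of 5.12 percentile points. Over all 3099 protein-coding genes with H3K27ac in both, 80.4% ranked higher and the median difference was 24.8.

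H3K4me3 ranks at most histone genes were lower in kd. The best island had a median percentile of 86.4 in control and 71.8 in kd, while over all protein-coding genes with an island it was 72.6 and 75.2. The lists held 26130 islands in control and 33506 in kd. Of 64 histone genes called in both, 57 ranked lower in kd and 7 higher, with a median difference of -22.16 percentile points. The histone windows were reached by only 30 islands in control and 32 in kd, so that genes under 1 island are not independent. Over the 12239 protein-coding genes called in both, 24.7% ranked lower and the median difference was 6.93. The islands with the smallest p in a list share the top rank, since their p is deposited as 0. A gene at the top rank in control, such as those under the island over Hist1h2ah and Hist1h2bk, could only keep its rank or fall.

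In H3K4me3, only Hist1h1t changed its call. It was reached by an island in control alone, as were 0.779% of protein-coding genes, and no histone gene gained one in kd alone, against 4.59%. That control island of 1800 bp (chr13:23696601-23698400) lay between Hist1h1t and Hist1h4c and was counted for both, while the kd island of 1400 bp (chr13:23697201-23698600) reached Hist1h4c only. The pair Hist1h2ba and Hist1h2aa had no H3K4me3 in either condition.

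Both marks formed islands over several histone genes. In control 19 H3K27ac islands held at least 1 histone TSS and 14 of them 2 or more, so that 45 of the 50 TSS inside islands shared theirs with another. Over the genome 15.8% of the H3K27ac islands that held a protein-coding TSS held 2 or more. In kd 26 islands held a histone TSS, 14 of them 2 or more, against 15.6% over the genome. For H3K4me3 19 of 27 islands in control and 19 of 31 in kd held 2 or more histone TSS, against 12.7% and 12.1% over the genome. Histone genes lie close together, and the part of gene spacing in these counts was not tested.

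The island with the most histone TSS was an H3K27ac island of 23000 bp in control (chr13:23738001-23761000). It ran over Hist1h1c, Hist1h3c, Hist1h2bb, Hist1h2ab, Hist1h3b and Hist1h4b, so that all 5 histone classes stood under it. It lay at percentile 99.9 of its list for width and 99.97 for strength. In kd the same stretch held 2 islands, which covered 90.4% of its bases. The larger was 14800 bp wide (chr13:23739001-23753800) and held 4 of the 6 TSS, at percentile 99.4 for strength. The TSS of Hist1h1c fell outside by less than 1 kb, so that its window was still called.

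Other wide control islands were also cut in kd. The H3K4me3 island of 13200 bp over Hist1h2ah, Hist1h2bk, Hist1h4i, Hist1h2ag and Hist1h2bj (chr13:22032001-22045200) was replaced by 2 islands of 5200 bp each, with 2 and 3 of the TSS. On chromosome 3 the H3K27ac island of 12600 bp over Hist2h3c2, Hist2h2aa2, Hist2h2aa1 and Hist2h3c1 (chr3:96236601-96249200) was replaced by islands of 3600 and 3800 bp with 2 TSS each. The H3K27ac island of 14400 bp over Hist1h2bh, Hist1h3f, Hist1h4f and Hist1h1d was replaced by islands of 6400 and 10400 bp with 2 TSS each. In this order, kd islands still covered 78.8%, 58.7% and 94.4% of the bases of these control islands. A block of 5 genes, Hist1h2ae, Hist1h2bg, Hist1h2bf, Hist1h2ad and Hist1h3d, stayed under 1 island of each mark in both conditions, at 11200 and 9400 bp for H3K27ac and 8400 and 7800 bp for H3K4me3.

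In the other direction, some H3K27ac islands held more TSS in kd. At the start of the proximal chromosome 13 cluster 2 control islands, of 3400 bp over Hist1h2bl, Hist1h2ai and Hist1h3h (percentile 1.36 for strength) and of 3800 bp over Hist1h2bm (67.8), were joined in 1 kd island of 9800 bp (91.1). A kd island of 2600 bp held the TSS of Hist1h2an and Hist1h2bp, where the control island of 2400 bp (chr13:21787601-21790000) held neither. A kd island of 9600 bp held the TSS of Hist1h4d, which lay just outside the control island of 8600 bp (chr13:23581601-23590200).

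Counted over all islands at histone windows, 7 of 24 H3K27ac islands in control met 2 or more islands in kd, and 3 of 30 kd islands met 2 or more in control. For H3K4me3, 5 of 30 control islands met 2 or more in kd, and none of the 32 kd islands met 2 or more in control. Of the bases under the H3K4me3 islands in control 81.9% were also covered in kd, and of those in kd 98.6% were covered in control. For H3K27ac the shares were 80.3% and 87.7%. The median width of these H3K4me3 islands was 5400 bp in control and 3700 bp in kd, while the median over the whole list was 3200 and 3400 bp. For H3K27ac the medians were 5500 and 4100 bp, and 3400 and 2600 bp over the list.

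**Figure D5:**
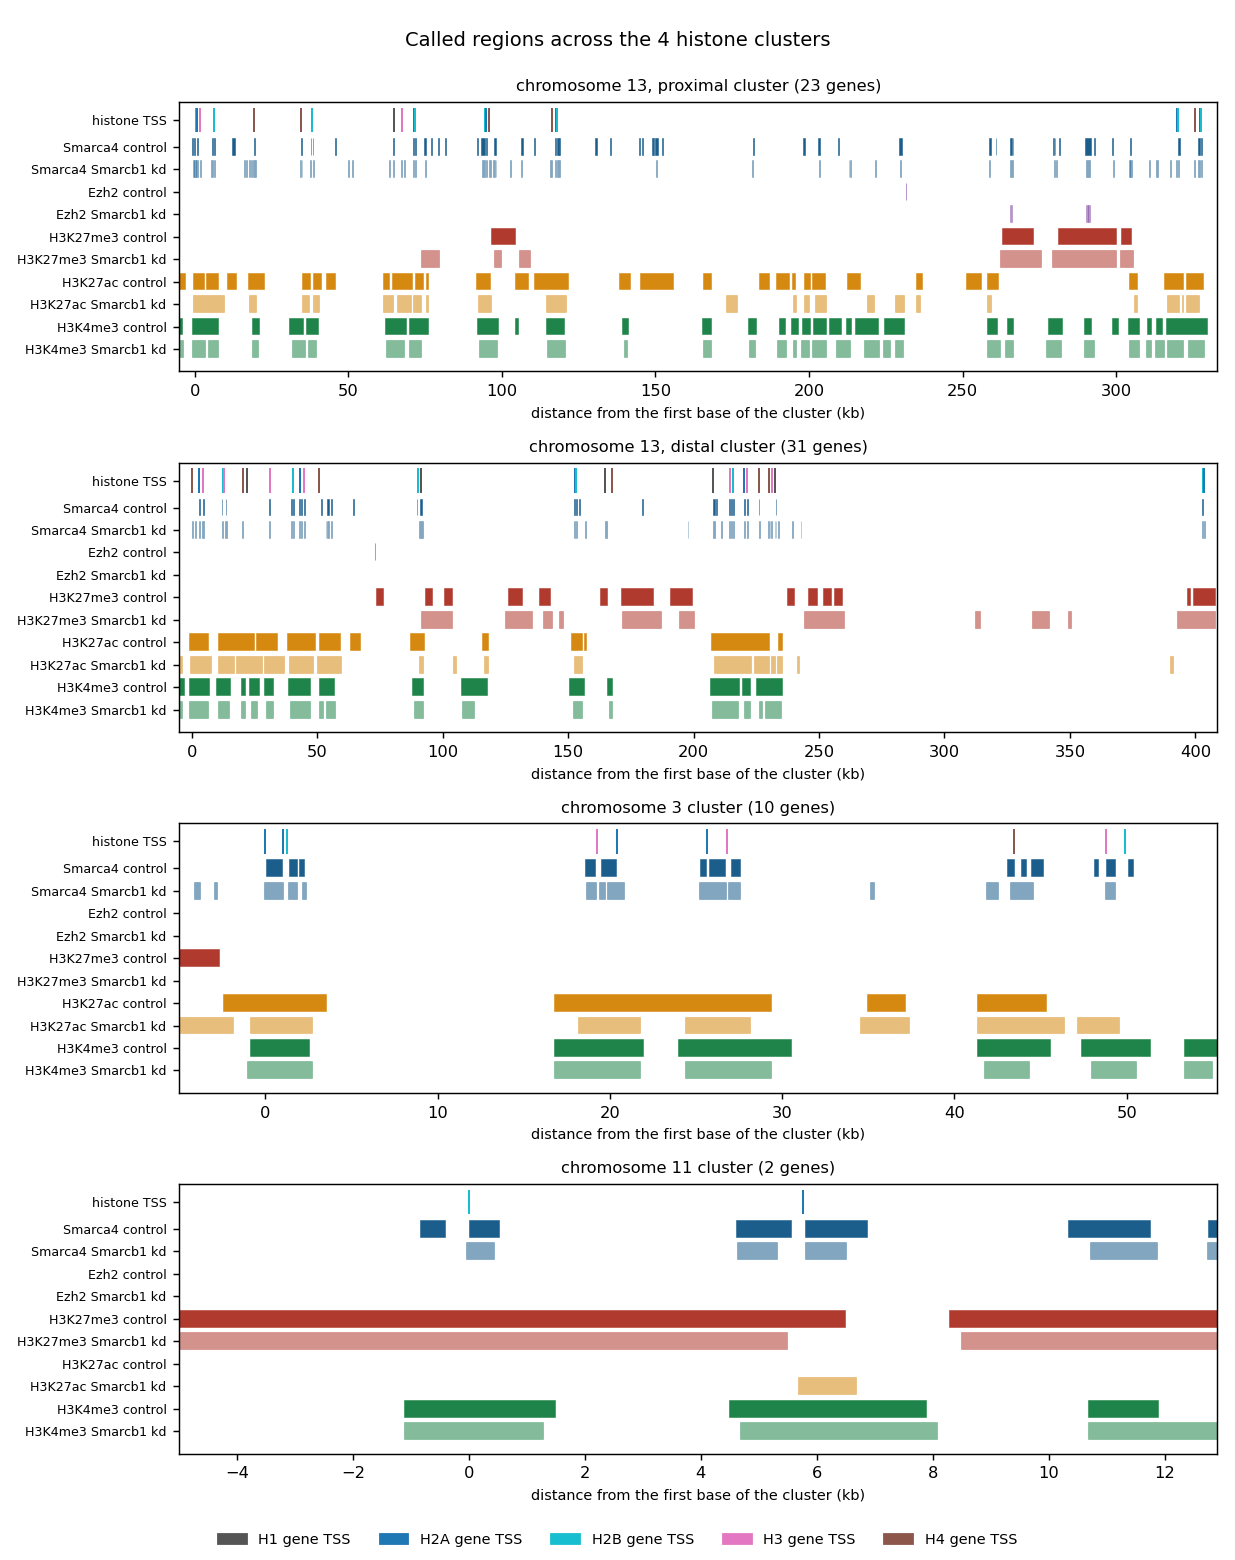
Called regions (bars, full colour control and pale Smarcb1 kd, 1 library each) and histone TSS (ticks, coloured by class) along the 4 clusters and 5 kb on both sides, against the distance from the first base of the cluster (x axis, kb). H3K27ac and H3K4me3 bars run over several ticks and are shorter in kd at many places, and H3K27me3 covers most of the chromosome 11 cluster.

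The chromosome 13 and 3 clusters were covered more densely by H3K27ac, H3K4me3 and Smarca4 than the genome, and the chromosome 11 cluster by H3K4me3 and Smarca4 but not by H3K27ac. Clusters were runs of histone genes less than 200 kb apart, and coverage was taken with 5 kb added on both sides. They are the proximal (chr13:21715763-22043676, 23 genes) and the distal chromosome 13 cluster (chr13:23531050-23934851, 31 genes), the chromosome 3 cluster (chr3:96219865-96270132, 10 genes) and the chromosome 11 cluster (chr11:58948920-58956830, 2 genes). Hist4h4 stands alone on chromosome 6 (chr6:136801553-136804415).

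H3K4me3 covered 35.5% of the proximal and 20.9% of the distal chromosome 13 cluster in control and 30.4% and 16.3% in kd. It covered 42.0% of the chromosome 3 cluster in control and 34.2% in kd. Only in the chromosome 11 cluster was the kd value higher, at 44.8% against 40.2%. Over the genome H3K4me3 covered 3.71% in control and 4.94% in kd, so the chromosome 13 and 3 clusters lost bases under H3K4me3 while the genome gained them.

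H3K27ac covered 34.6% of the proximal chromosome 13 cluster in control and 19.4% in kd. The distal cluster was covered at 22.1% and 21.2% and the chromosome 3 cluster at 41.1% and 40.4%, where the genome stood at 5.91% and 6.44%. The chromosome 11 cluster had no H3K27ac in control and was covered at 5.58% in kd. Smarca4 covered 7.21% and 7.11% of the proximal, 2.68% and 3.84% of the distal and 12.2% and 15.5% of the chromosome 3 cluster, against 1.80% and 1.49% of the genome. In the chromosome 11 cluster Smarca4 covered 25.3% in control and 18.1% in kd.

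The proximal chromosome 13 cluster also holds 32 tRNA genes in the RefSeq annotation. Most H3K4me3 and H3K27ac islands away from histone genes there lay at them. Of its 30 H3K4me3 islands in control 9 reached a histone TSS window, 18 others lay within 1 kb of a tRNA gene and 3 elsewhere or at another gene. In kd the numbers were 11, 16 and 3. For H3K27ac, 11 islands in both conditions reached a histone window, and 11 others in control and 6 in kd lay at a tRNA gene. Away from all annotated starts and tRNA genes lay 8 in control and 4 in kd. Of 54 Smarca4 peaks in control 20 reached a histone window and 9 others lay at a tRNA gene. In kd these were 28 and 12 of 57. The distal cluster holds 2 tRNA genes.

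The 10 other protein-coding genes inside the clusters were counted in the same way. H3K27ac was called at none in control and at 2 in kd (Trim17 and Zfp184), against 16.0% and 30.9% of all protein-coding genes. H3K4me3 was called at 3 in each condition, against 56.6% and 60.4%, and H3K27me3 at 5 in each, against 34.9% and 29.2%. Trim17 has the same annotated TSS position as Hist3h2a, so its calls are those of Hist3h2a. Smarca4 was called at 5 in control and 4 in kd, against 62.5% and 63.5% of all protein-coding genes. The solute carrier genes Slc17a1, Slc17a2, Slc17a3 and Slc17a4 between the main block and the germ cell pair had none of the active marks and no Smarca4.

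H3K27me3 was called in both conditions at 4 histone genes, namely both genes of chromosome 11 and the last pair of the distal chromosome 13 cluster. The chromosome 11 cluster was covered to 90.0% in control and 83.3% in kd, against 7.17% and 5.31% of the genome. An island of 14800 bp in control and 12200 bp in kd lay over Hist3h2ba, with the TSS of Hist3h2a inside it in control and within 1 kb of its edge in kd. Both genes also had H3K4me3 and Smarca4 in both conditions, and Hist3h2a gained H3K27ac in kd with an island of 1000 bp.

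The germ cell pair Hist1h2ba and Hist1h2aa, the last genes of the distal cluster, lay under an H3K27me3 island of 9000 bp in control and 15200 bp in kd. They had a Smarca4 peak in both conditions and neither active mark. In the other germ cell gene, Hist1h1t, an H3K27me3 island of 2800 bp at percentile 13.2 of the list was called in control and none in kd.

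Further calls of H3K27me3 rested on island edges. Hist1h4m had a call in control alone, from an island that began 655 bp from its TSS, and Hist1h1e in kd alone, from one 43 bp away. Genes with a call in control alone made up 8.15% of protein-coding genes and those in kd alone 2.39%, against 2 and 1 of the 67 histone genes. In all 4 genes called in both conditions the island ranked higher in kd, by 9.16 to 11.8 percentile points, but these are 2 pairs under 1 island each. Over the 5874 protein-coding genes called in both, 25.1% ranked higher and 58.8% lower in kd, with a median difference of -4.61. The lists held 22909 islands in control and 18320 in kd.

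Ezh2 peaks inside the clusters lay away from the histone TSS. In control there was 1 peak of 229 bp in the proximal and 1 of 222 bp in the distal cluster, with the nearest histone TSS 88127 and 16918 bp away. The second lies inside the annotated span of Hist1h2be (chr13:23583670-23621124), the longest of the 67 genes. In kd there were 3 peaks in the proximal cluster, 28246 bp or more from a histone TSS, of which 1 reached the TSS window of Pom121l2, and none in the distal one. Over all protein-coding genes 0.283% had an Ezh2 call in control alone and 5.78% in kd alone.

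Histone genes that are expressed outside S phase were counted for comparison. Of 17 replication-independent histone genes, among them the genes of H2A.Z (H2afz), H3.3 (H3f3a and H3f3b) and the centromeric Cenpa, 10 had H3K4me3 and 10 had Smarca4 in each condition. H3f3b, Hils1, H1fnt, H1foo, H2afb1, H2afb2 and H2afb3 had neither in either condition. H3K27ac was called at 7 in control and 13 in kd, against 16.0% and 30.9% of all protein-coding genes. H3K27me3 was called at 5 in control and 1 in kd, against 34.9% and 29.2%. The 6 genes with H3K27ac in kd alone were H2afy2, H2afv, Hils1, H1f0, H1fnt and H1fx, and those with H3K27me3 in control alone were H2afy, H2afy2, H1fx and Hils1. Ezh2 was called at none of the 17 genes. Of all protein-coding genes 16.8% had H3K27ac in kd alone and 8.15% H3K27me3 in control alone.

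Regulators of histone genes were counted in the same way. Of 16 genes, including the coactivator Npat, the stem-loop binding protein Slbp and the processing factors Lsm10, Lsm11, Cpsf2 and Cpsf3, 15 had Smarca4 and H3K4me3 in both conditions, all but Zfp473. H3K27ac was called at 5 of them in control (Pou2f1, Cdk2, Cpsf2, Casp8ap2 and Npat) and at 15 in kd, while the share over all protein-coding genes with H3K4me3 in control went from 25.9% to 50.4%. Of the clustered histone genes 58 of 67 had it already in control, and this difference between lists was not tested.

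As a check of the cell type, 8 stem cell genes and 8 genes of other cell types were counted in the same way. H3K27ac was called at 6 stem cell genes in control and 7 in kd, among them Pou5f1, Nanog and Sox2 in both, and H3K4me3 at 7 in both. Of the genes of other cell types, 6 had H3K27me3 in both conditions and none H3K27ac in control. Esrrb had no active mark at its annotated TSS.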

How the data were processed

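The authors trimmed reads (Trim Galore), aligned them to mm10 (Bowtie2) and kept unique alignments with few mismatches (SAMtools 1.9), as the labels and methods say. MACS2 was used for Smarca4 and Ezh2, and the deposited score is the authors' MACS2 score. H3K27me3, H3K27ac and H3K4me3 islands were called with SICER (window 200 bp, gap 600 bp), and the deposited p-value is the authors' SICER p-value. Each of the 10 libraries was called on its own. Whether the background was input or IgG is not certain. The methods and the sample titles name input, while the antibody label of these libraries and a figure legend of the paper name IgG. The 4 inputs had no list of their own here. Neither score nor p-value is scaled between libraries. The number of aligned reads per library is unknown, so no interval on signal is given.

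Called regions of the autosomes, X and Y were set against TSS ± 1 kb of GENCODE M21 genes (overlap of at least 1 bp) using pandas 2.3.3 and numpy 2.4.6. A percentile is the share of regions in the same list at or below a region's score, or at or above its p-value. Clusters were runs of members less than 200 kb apart with 5 kb added on both sides. Head-to-head pairs had starts within 1 kb. Words of 75 bases were counted without mismatch on both strands of GRCm38. Of 67 members 62 matched a RefSeq promoter entry. Overlap and word counting were tested on simulated data. No test between conditions was possible, and the Wilson intervals (95%) cover counting error only. Members and lists were chosen with earlier results of these data known. Named genes were members called in 1 condition alone, those with the 3 highest and 3 lowest Smarca4 ranks in control (ties kept), those without Smarca4 in either condition, those of the island with the most TSS, those with a Polycomb call, and genes of chromosomes 3, 6 and 11 called in most lists, where many tied. Other genes were named after their values were seen. Shares given for peaks by unique words, for genes with H3K4me3 and for tRNA genes were added after the data were seen. Alternatives were other windows, thresholds, overlaps, list lengths, repeat filters, starts, pair counting and chromosome 13 alone.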

Additional observations from a re-analysis of the deposited data

How the results depend on the processing

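Of 276 values recomputed for 36 results, 247 stayed within 1.5 times the reported one and 29 moved further. None of those recomputed at RefSeq starts moved. With the lists limited to scores from 50 upwards and to p-values up to 1e-10 (H3K27ac) or 1e-20 (other marks), 1 gene had Smarca4 in control alone and 14 in kd alone, 1 had H3K27me3 in control alone, 3 had H3K27ac in control alone and 16 in kd alone, 2 had H3K4me3 in control alone, and 8 H3K27ac islands in control held 2 or more TSS. With 500 bp on both sides, 2 genes had Smarca4, 1 H3K27me3, 2 H3K27ac and 0 H3K4me3 in control alone. With 2 kb, 1 had Smarca4 and 0 H3K4me3 in control alone, and H3K27me3 was called at 8 genes in kd and at 2 in kd alone. From 1 kb upstream to the gene end, Ezh2 was called at 1 gene in control, and at 1 in control alone. With lists of equal length, 1 gene had H3K27me3, 3 H3K27ac and 2 H3K4me3 in control alone. With an overlap of at least 200 bp, 2 had H3K4me3 in control alone. With regions under 50% repeat-masked, 1 had H3K27me3 in control alone. On chromosome 13 alone, 3 of 54 genes had H3K27me3 in kd and 1 had H3K27ac in kd alone. In alternatives chosen after seeing the data, Smarca4 peaks with at least 50% unique words left 24 genes called in control, 34 in kd, 3 in control alone and 13 in kd alone, and among the 57 genes with at least 50% unique windows 1 had H3K27me3 in control alone. Except for the unique words and chromosome 13, where the construction leaves fewer peaks or genes, the cause was not tested. No paired analysis was possible because there was 1 library per antibody and condition, and for the same reason no library could be left out. The number of aligned reads per library is unknown, so a missing call does not show that a protein or mark was absent.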
